A study of Homo sapiens with 4 samples.

Results

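The genes described are 37 genes of cholesterol and fatty acid synthesis and of its control, picked by gene symbol from the 63677 genes counted in RNA-seq libraries of IMR90, a strain of human lung fibroblasts. All 37 were found on primary chromosomes, and all 37 were among the 15398 genes that passed the filter on low counts. Cells of both groups were transfected with RNAiMAX and harvested at 72 h, with a non-targeting control siRNA (NTC, hereafter control) or with siRNA against HMGB1, a chromatin protein of the high-mobility group box family. Each group held 2 libraries, of which replicate 1 was isolate I90-10 and replicate 2 was isolate I90-79. The methods name 2 different siRNAs against HMGB1, and which of them entered which library is not given in the sources used here. The isolates are the only replicates, so p-values measure the spread between these libraries.

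Sterol regulatory element-binding proteins (SREBPs) are made as precursors in the membrane of the endoplasmic reticulum. When sterols are scarce, the escort protein SCAP carries them to the Golgi, where proteases free the part that enters the nucleus, and INSIG proteins hold SCAP back when sterols are plentiful. SREBP2 mainly drives the enzymes of cholesterol synthesis and SREBP1 those of fatty acid synthesis, whereas the liver X receptors (LXRs) respond to oxidised sterols and drive genes of cholesterol export. Accordingly the 37 genes were set in 4 classes, with 21 SREBP2-type members (18 enzymes and 3 sterol transport proteins), 7 SREBP1-type members, 4 LXR-type members and 5 regulators of the SREBPs.

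Depth was between 29861687 and 35317010 counted reads per library. HMGB1 (ENSG00000189403, chr13:31032884-31191734, hg19) was 181 and 237 counts-per-million (CPM, scaled by TMM) in the control libraries and 16.0 and 18.9 CPM in the knockdown libraries, 12.0-fold lower (edgeR adjusted p = 0.00751, and 0.0487 or 0.0324 without knockdown replicate 1 or 2). Here and in what follows, the value of isolate I90-10 is given first and that of I90-79 second, and gene positions are on hg19. Fibroblast markers were found in every library (8 of 8, summed 12290 to 22000 CPM, mostly COL1A2 and COL3A1), with S100A4 low at 1.06 to 3.05 CPM. THY1 was 422.5 and 199.9 CPM in control and 229.4 and 93.3 CPM in knockdown libraries. LUM went the other way, at 127.9 and 80.6 CPM in control and 186.7 and 174.6 CPM in knockdown libraries. Summed markers of leukocytes (0.08 to 0.35 CPM) and adipocytes (0.14 to 0.52 CPM, with ADIPOQ and CIDEC at 0) were near 0. Those of epithelium (1.15 to 6.20 CPM, KRT5 at 0, KRT19 up to 5.48) and endothelium (1.85 to 4.78 CPM, CDH5 at 0) were low. Of the endothelial markers, VWF was 1.36 and 0.92 CPM in control and 4.155 and 2.59 CPM in knockdown libraries. The 6 proliferation markers summed to 465 and 807 CPM in the control and 411 and 506 CPM in the knockdown libraries, and their part in the results was not tested. In such bulk samples, fewer cells of a type and less RNA per cell cannot be told apart.

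The promoters of 5 members are shown as examples from the regulators, the SREBP2 type and the LXR type. These are the SREBP2 gene, the retention factor INSIG1, an early enzyme and a transport gene of the SREBP2 type, and the exporter ABCA1. No promoter of an SREBP1-type member is printed. Each run holds the 250 bases before a RefSeq start site on GRCh38.p14, read 5′ to 3′ on the gene's strand: SREBF2 at chr22:41832855-41833104 (plus), HMGCS1 at chr5:43313413-43313662 (minus), TMEM97 at chr17:28318950-28319199 (plus), INSIG1 at chr7:155297628-155297877 (plus) and ABCA1 at chr9:104928156-104928405 (minus). Capitals mark exact matches to the sterol regulatory element TCACCCCAC, the CCAAT box (CCAAT, or ATTGG where it lies on the other strand) and the E-box CACGTG.
SREBF2: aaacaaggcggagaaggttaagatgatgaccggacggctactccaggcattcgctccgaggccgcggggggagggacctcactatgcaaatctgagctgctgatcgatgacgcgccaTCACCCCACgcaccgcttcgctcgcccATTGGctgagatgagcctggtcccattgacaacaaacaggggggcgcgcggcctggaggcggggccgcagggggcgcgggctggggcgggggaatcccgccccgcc
HMGCS1: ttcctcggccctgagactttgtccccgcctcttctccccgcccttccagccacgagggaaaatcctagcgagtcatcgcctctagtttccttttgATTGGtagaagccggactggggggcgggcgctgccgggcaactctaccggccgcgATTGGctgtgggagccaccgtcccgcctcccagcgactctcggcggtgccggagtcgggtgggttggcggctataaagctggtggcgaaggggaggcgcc
TMEM97: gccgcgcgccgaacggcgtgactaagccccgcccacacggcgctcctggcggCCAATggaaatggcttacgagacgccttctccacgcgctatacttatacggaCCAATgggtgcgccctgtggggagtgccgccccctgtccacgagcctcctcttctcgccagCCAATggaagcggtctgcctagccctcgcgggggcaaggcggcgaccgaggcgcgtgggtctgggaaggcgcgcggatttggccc
INSIG1: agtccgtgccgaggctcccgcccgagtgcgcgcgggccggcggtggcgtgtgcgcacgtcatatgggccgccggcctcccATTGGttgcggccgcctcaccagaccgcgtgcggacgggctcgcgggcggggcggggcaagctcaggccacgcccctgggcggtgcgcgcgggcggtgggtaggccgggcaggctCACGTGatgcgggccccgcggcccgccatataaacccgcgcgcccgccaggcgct
ABCA1: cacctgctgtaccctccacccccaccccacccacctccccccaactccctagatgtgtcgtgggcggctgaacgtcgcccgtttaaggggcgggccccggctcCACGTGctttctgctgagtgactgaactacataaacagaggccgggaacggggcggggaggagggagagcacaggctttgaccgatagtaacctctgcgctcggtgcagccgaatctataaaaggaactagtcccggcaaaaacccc

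In these letters, SREBF2 holds the sterol regulatory element 133 bases before its start site and an inverted CCAAT box at 106 bases. HMGCS1 holds inverted CCAAT boxes at 155 and 100 bases. It has a further promoter (chr5:43313132-43313431) with 0 CCAAT boxes, and the promoter with more of them was printed. TMEM97 holds forward CCAAT boxes at 198, 146 and 85 bases, and INSIG1 an inverted one at 170 bases beside an E-box at 55 bases. Among the motifs marked in capitals, ABCA1 holds only an E-box, at 147 bases. Other elements, such as GC boxes and sites for LXRs, are not marked in these letters. The RefSeq table gave 42 promoters for 32 of the 37 members, each from 250 bases before to 50 bases after the start, and none for ACAT2, FDFT1, SQLE, FASN and ABCG1. Over both strands, CCAAT was found in 26 of the 42 (61.9%, 22 genes) and in 34.6% of all 35116 promoters of the table. The GC box GGGCGG was found in 38 of 42 (90.5%, 31 genes) against 45.0% of all promoters (its letters can share bases with an inverted CCAAT box). CACGTG, which reads the same on both strands, was found in 6 of 42 (14.3%, in ABCA1, INSIG1, LSS, SC5D and SCAP) against 7.26% of all. Promoters of the same member can overlap, so a site can count more than once. The E-box of SC5D is the same site in both of its promoters. The element TCACCCCAC was found only in SREBF2 among the member promoters (2.38%) against 0.43% of all, the looser TCACNCCAC, which includes it, in the same promoter alone against 1.13%, and GGTCA repeated after 4 bases in 0 of 42 against 0.05%. This last pattern cannot match AGGTCA repeated with 4 bases between, so its count says nothing of sites for LXRs. A match is a description of letters and says nothing of binding.

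Across the 37 genes, the level was higher in the knockdown libraries for 32 and lower for 5 (TM7SF2, STARD4, INSIG1, INSIG2 and ACACA). The median log2-fold change (knockdown over control) was 0.39, with a range from -0.49 to 1.47, whereas over all genes tested the median was -0.0054 and 7642 of 15398 (49.6%) were positive. The members were chosen with earlier results of these data known. The shares of all genes beside their counts are therefore a description and not a test. Summed over the members, the libraries held 3388 and 3084 CPM in control and 4896 and 3973 CPM in knockdown, so both knockdown libraries exceeded both controls. The libraries of the groups did not overlap for 22 members that were higher and 3 that were lower in knockdown (TM7SF2, INSIG1 and INSIG2), where 29.8% of all genes were higher and 30.2% lower without overlap. The direction of no member differed between TMM, DESeq2 size factors and upper-quartile scaling.

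Whether a member passed the test depended on the fit, through the tool, the filter on low counts and the treatment of the isolates. At an adjusted p below 0.01 and a log2-fold change beyond 0.6, edgeR's quasi-likelihood test without a term for the isolate called 0 of 37 members, in a comparison that called 0.0649% of all genes upregulated and 0.136% downregulated. At an unadjusted p below 0.05 in that fit, 13 members were higher and 1 (INSIG1) was lower, against 13.6% and 14.7% of all genes. At an adjusted p below 0.05 with no limit on the fold change, 7 members were upregulated (ACAT2, HMGCS1, SC5D, TMEM97, FASN, FADS1 and ABCA1) and 0 downregulated, against 3.94% and 4.50% of all genes. With the isolate as a block in edgeR, which pairs the 2 libraries of each isolate, 9 members rose and 0 fell at the stricter limits, against 6.68% and 7.84% of all genes. These 9 were ACAT2, HMGCS1, CYP51A1, MSMO1, TMEM97, NPC1, FASN, FADS1 and ABCA1, and 6 of them were among the 7. RUVs followed by DESeq2, the tools of the study's methods, called 12 members upregulated and 0 downregulated, against 4.96% and 5.39% of all genes, and 7 of the 12 were called with the block. Fits with no term for the isolate or for unwanted variation also made calls. DESeq2 alone called 7 members upregulated and 0 downregulated, against 4.73% and 5.31% of all genes, and edgeR without a filter on low counts called 10 and 0, against 4.08% and 4.65% of the 27391 genes it tested. With 2 libraries per group, an exact two-sided permutation test of a single gene cannot go below p = 0.333.

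**Figure D1:**
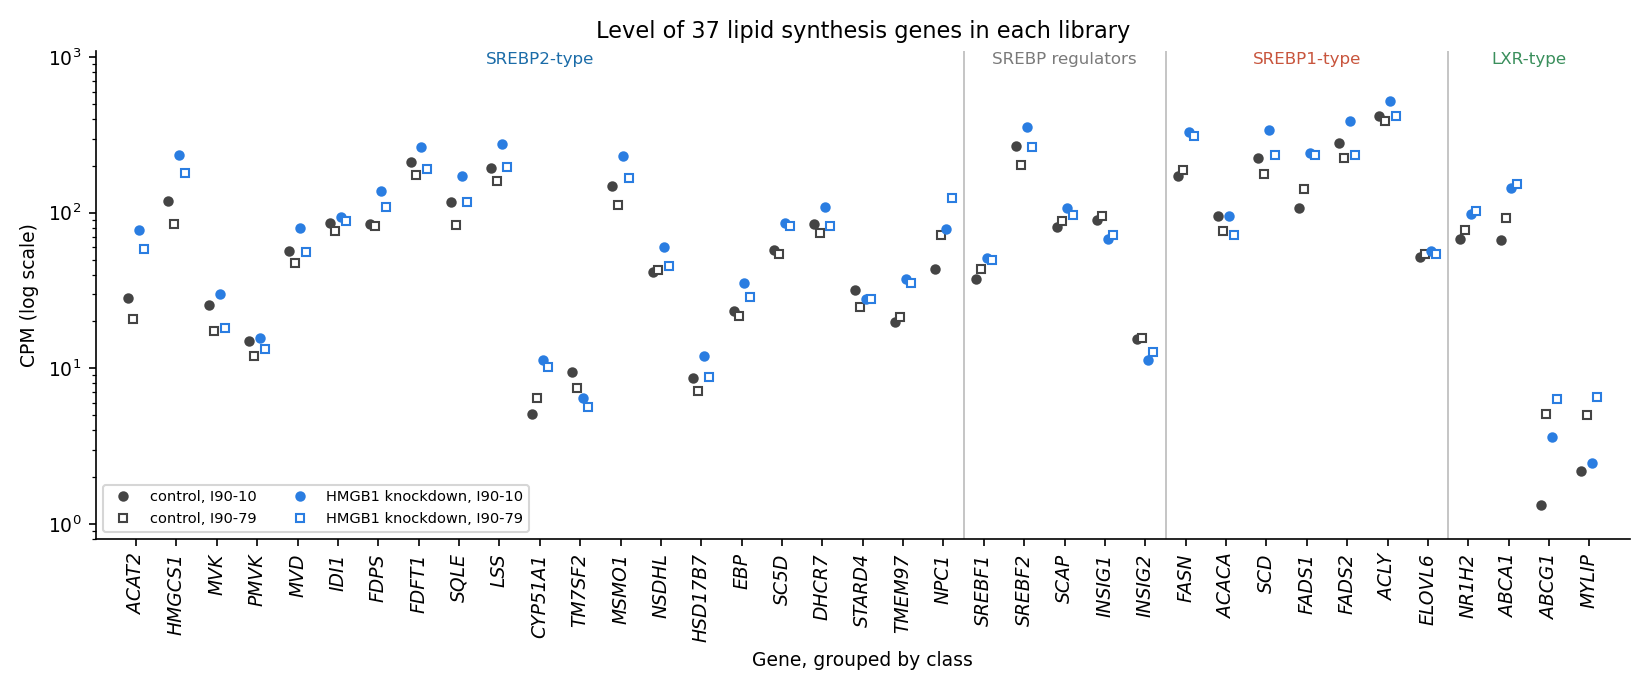
Level of each of the 37 members in every library, in CPM on a log axis, with 1 point per library and members grouped by class. ACAT2 and HMGCS1 have both knockdown libraries above both controls, and TM7SF2, INSIG1 and INSIG2 have both below.

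Cholesterol synthesis starts from acetyl-CoA, and its entry steps held the members with the largest differences. ACAT2 (ENSG00000120437, chr6:160181360-160200144), the acetyl-CoA acetyltransferase of the first step, was 28.1 and 20.8 CPM in control and 77.1 and 58.4 CPM in knockdown libraries. HMGCS1 (ENSG00000112972, chr5:43289497-43313614), the cytosolic synthase that makes HMG-CoA, was 118 and 84.9 CPM in control and 236 and 181 CPM in knockdown libraries. For both genes the lower knockdown library exceeded the higher control. The log2-fold change was 1.47 (SE 0.21, edgeR adjusted p = 0.0245, and 6.48e-05 with the isolate block) for ACAT2, a 2.77-fold difference. It was 1.04 (SE 0.22, edgeR adjusted p = 0.0498, and 0.000181 with the block) for HMGCS1, a 2.06-fold difference. Exons of TCP1 and of a further gene cover 53.0% of the exon bases of ACAT2 in hg19, and since the setting for strand is not given in the sources used here, its counts are uncertain to that extent.

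The following steps, which turn HMG-CoA's product mevalonate into the isoprenoid units of squalene, differed less. The kinases MVK and PMVK, the decarboxylase MVD and the isomerase IDI1 had log2-fold changes of 0.18 (95% CI -0.60 to 0.95), 0.10 (-0.37 to 0.57), 0.38 (-0.14 to 0.90) and 0.17 (-0.12 to 0.47), and none was called with or without the block, although with the block the interval of MVD was 0.12 to 0.62 (edgeR adjusted p = 0.0345). FDPS (chr1:155278539-155290457), the farnesyl diphosphate synthase, was 85.2 and 82.3 CPM in control and 138 and 110 CPM in knockdown libraries, without overlap. The log2-fold change of FDPS was 0.56 (SE 0.15, edgeR adjusted p = 0.0767, and 0.00549 with the block), short of 0.6, and it was called after RUVs and DESeq2 at 0.65 (adjusted p = 0.000665). FDFT1, the squalene synthase that commits the chain to sterols, had a log2-fold change of 0.24 (95% CI -0.26 to 0.74, and 0.0010 to 0.45 with the block). For SQLE, the squalene epoxidase, it was 0.54 (-0.11 to 1.18), with an interval of 0.31 to 0.74 and an edgeR adjusted p of 0.00385 with the block, and it was called after RUVs and DESeq2 at 0.81 (adjusted p = 2.54e-06). For LSS, which closes the ring to lanosterol, it was 0.41 (-0.10 to 0.93), with an interval of 0.17 to 0.63 and an edgeR adjusted p of 0.0165 with the block. Leaving out knockdown replicate 1 gave 0.22 for SQLE and 0.15 for LSS, their lowest values. The highest were 0.80 for SQLE when control replicate 1 was left out and 0.64 for LSS when knockdown replicate 2 was.

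Among the enzymes that convert lanosterol to cholesterol, 7 of 8 members were higher in knockdown libraries. CYP51A1 (chr7:91741465-91772266), the lanosterol demethylase, was 5.07 and 6.40 CPM in control and 11.4 and 10.2 CPM in knockdown libraries. MSMO1 (chr4:166248775-166264312), the oxidase of the C4 methyl groups, was 148 and 112 CPM in control and 231 and 167 CPM in knockdown libraries. SC5D (chr11:121163162-121179403), a sterol desaturase, was 57.3 and 54.4 CPM in control and 86.5 and 82.1 CPM in knockdown libraries. In all 3 the groups did not overlap, with the least spread between isolates in SC5D. The log2-fold change was 0.91 for CYP51A1 (SE 0.21, edgeR adjusted p = 0.0590, and 0.00687 with the block) and 0.62 for MSMO1 (SE 0.22, adjusted p = 0.141, and 0.00183 with the block). Without knockdown replicate 1, the value of MSMO1 was 0.36. The call of CYP51A1 was lost after RUVs and DESeq2 (0.86, adjusted p = 0.0311). For SC5D the log2-fold change was 0.59 (SE 0.11, edgeR adjusted p = 0.0387, and 0.00257 with the block), just under the limit on the fold change. RUVs and DESeq2 called SC5D at 0.635 (adjusted p = 0.000764) and MSMO1 at 0.84 (adjusted p = 2.88e-07). Exons of other genes cover 82.2% of the exon bases of CYP51A1, an antisense gene among them, and 67.5% of its 50-base pieces also occur in other genes, so that its counts are uncertain.

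EBP, the sterol isomerase, was 23.3 and 21.8 CPM in control and 35.2 and 28.8 CPM in knockdown libraries, without overlap. Its log2-fold change was 0.51 (SE 0.15, edgeR adjusted p = 0.103, and 0.0114 with the block), and 31.4% of its 50-base pieces occur in other genes. NSDHL and HSD17B7, which act on the C4 position, and DHCR7, a reductase of the last steps, had log2-fold changes of 0.31, 0.40 and 0.28, and their 95% CIs included 0 in the fit without the isolate. With the block the intervals were 0.013 to 0.59, 0.029 to 0.74 and 0.036 to 0.51, at edgeR adjusted p-values of 0.102, 0.0929 and 0.0765. TM7SF2 (chr11:64879317-64883856), a reductase of the sterol C14 double bond, stood against the other enzymes with 9.46 and 7.49 CPM in control and 6.44 and 5.60 CPM in knockdown libraries. Its groups did not overlap, at a log2-fold change of -0.49 (SE 0.22, edgeR adjusted p = 0.209, and 0.0566 with the block), so it did not pass the test.

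Of the 3 sterol transport genes, 2 rose with the isolate block, against 6.68% of all genes. TMEM97 (chr17:26646121-26655707), a membrane protein that binds NPC1, was 20.0 and 21.3 CPM in control and 37.7 and 35.4 CPM in knockdown libraries. NPC1 (chr18:21086148-21166862), the lysosomal cholesterol exporter, was 43.3 and 71.5 CPM in control and 78.9 and 124 CPM in knockdown libraries. TMEM97 varied little between isolates, while in NPC1 isolate I90-79 was the higher one in both groups and its control came close to the lower knockdown library. The log2-fold change was 0.83 for TMEM97 (SE 0.12, edgeR adjusted p = 0.0259, and 0.00113 with the block) and 0.82 for NPC1 (SE 0.32, adjusted p = 0.167, and 0.000548 with the block). For NPC1 it was 0.46 without knockdown replicate 2, 0.50 without control replicate 1 and 1.23 without control replicate 2. Its call was also lost after RUVs and DESeq2, at 0.47 (adjusted p = 0.0159). STARD4, a cytosolic sterol carrier, was 31.8 and 24.6 CPM in control and 28.1 and 27.9 CPM in knockdown libraries, with overlap and a log2-fold change of -0.01 (95% CI -0.42 to 0.40).

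**Figure D2:**
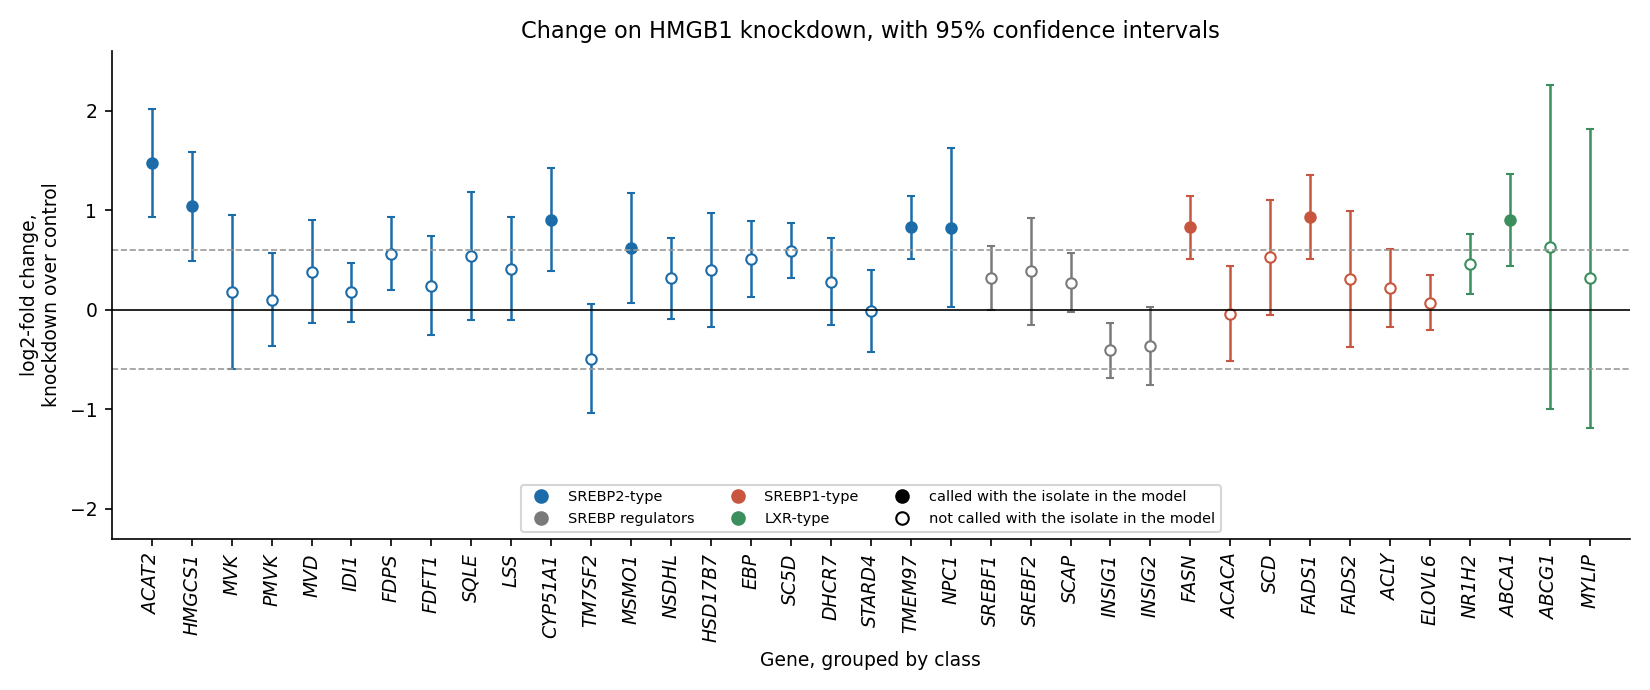
The log2-fold change (knockdown over control) of each of the 37 members with its 95% confidence interval in the edgeR fit without the isolate, grouped by class, with filled points for members called with the isolate block and dashed lines at the limits of 0.6 and -0.6. For 14 members the interval excludes 0, and 1 of these, INSIG1, lies below it.

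The regulators had values in both directions. SREBF1 (chr17:17713713-17740325), the gene of SREBP1, was 37.5 and 43.5 CPM in control and 51.1 and 49.7 CPM in knockdown libraries, without overlap. SREBF2 (chr22:42229109-42303312), the gene of SREBP2, was 269 and 203 CPM in control and 354 and 263 CPM in knockdown libraries, where the control of I90-10 exceeded the knockdown library of I90-79. INSIG1 (chr7:155089486-155101945) was 90.01 and 95.3 CPM in control and 67.8 and 72.1 CPM in knockdown libraries, both lower than either control. The log2-fold change was 0.32 for SREBF1 (SE 0.13, edgeR adjusted p = 0.179, and 0.0556 with the block), 0.39 for SREBF2 (SE 0.21, adjusted p = 0.294, and 0.0149 with the block) and -0.41 for INSIG1 (SE 0.11, adjusted p = 0.0837, and 0.0131 with the block). INSIG2, its paralog, was 15.4 and 15.6 CPM in control and 11.3 and 12.8 CPM in knockdown libraries (log2-fold change -0.37, 95% CI -0.75 to 0.02, and -0.68 to -0.055 with the block at an edgeR adjusted p of 0.0725). SCAP had a log2-fold change of 0.27 (95% CI -0.03 to 0.57, and 0.03 to 0.51 with the block at an edgeR adjusted p of 0.0848). SREBF2 was at 0.16 when knockdown replicate 1 was left out and at 0.60 when control replicate 1 was. No regulator passed both limits in edgeR with or without the block. RUVs followed by DESeq2 called 1 up, SREBF2, against 4.96% of all genes. The median of the 5 was 0.27, or 0.16 without knockdown replicate 1.

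In fatty acid synthesis, 2 of 7 SREBP1-type members rose with the isolate block, against 6.68% of all genes. A positive value was found for 6 of 7, against 49.6% of all genes. FASN (ENSG00000169710, chr17:80036214-80056208), the fatty acid synthase, was 172 and 190 CPM in control and 330 and 311 CPM in knockdown libraries. FADS1 (ENSG00000149485, chr11:61567099-61596790), a desaturase of polyunsaturated fatty acids, was 107 and 142 CPM in control and 241 and 234 CPM in knockdown libraries. In both genes every knockdown library lay above every control. The log2-fold change was 0.83 for FASN (SE 0.12, edgeR adjusted p = 0.0260, and 0.000698 with the block), a 1.77-fold difference. For FADS1 it was 0.93 (SE 0.17, edgeR adjusted p = 0.0363, and 0.000901 with the block), a 1.91-fold difference.

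The rest of this class did not pass both limits in either edgeR fit. SCD, the desaturase that makes oleate, was 226 and 176 CPM in control and 343 and 236 CPM in knockdown libraries, without overlap (log2-fold change 0.53, SE 0.23, edgeR adjusted p = 0.206, and 0.00559 with the block). It was called after RUVs and DESeq2 at 0.74 (adjusted p = 1.1e-05). Leaving out 1 library gave from 0.23 (knockdown replicate 1 left out) to 0.77 (knockdown replicate 2 left out). Exons of another gene cover 36.8% of the exon bases of SCD, and the setting for strand is not given, so its counts are uncertain to that extent. FADS2, which lies beside FADS1 and shares exon bases with it, was 279 and 225 CPM in control and 391 and 234 CPM in knockdown libraries, with overlap (0.31, 95% CI -0.38 to 0.99). ACLY, which supplies cytosolic acetyl-CoA, and ELOVL6, an elongase, had log2-fold changes of 0.22 (-0.18 to 0.61) and 0.07 (-0.21 to 0.34). ACACA, the acetyl-CoA carboxylase that precedes FASN, was 94.7 and 76.8 CPM in control and 95.7 and 71.4 CPM in knockdown libraries, a log2-fold change of -0.04 (95% CI -0.52 to 0.44). Per length, ACLY was the most abundant member in control libraries (77.6 ± 3.74 RPKM, which is CPM per kilobase of exon, SD, n = 2), followed by MSMO1 (44.8 ± 8.72), SCD (37.5 ± 6.50) and FDFT1 (37.2 ± 4.76), which overlap within their SDs, and ABCG1 the least abundant (0.52 ± 0.43).

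Of the LXR-type members, 1 of 4 rose with the block, against 6.68% of all genes. ABCA1 (ENSG00000165029, chr9:107543283-107690518), the transporter that loads cholesterol onto lipoproteins, was 66.5 and 92.5 CPM in control and 143 and 153 CPM in knockdown libraries. NR1H2 (chr19:50832910-50886239), the gene of LXR-beta, was 68.3 and 77.9 CPM in control and 98.7 and 102 CPM in knockdown libraries. Neither gene overlapped between the groups. The log2-fold change was 0.90 for ABCA1 (SE 0.18, edgeR adjusted p = 0.0470, and 0.000790 with the block) and 0.46 for NR1H2 (SE 0.12, adjusted p = 0.0767, and 0.00853 with the block). The exporter ABCG1 was 1.33 and 5.05 CPM in control and 3.60 and 6.34 CPM in knockdown libraries, and MYLIP, a ubiquitin ligase for lipoprotein receptors, was 2.18 and 5.02 CPM in control and 2.46 and 6.53 CPM in knockdown libraries. In both of these the isolates differed more than the groups, and the log2-fold changes of 0.63 (SE 0.64) and 0.32 (SE 0.59) did not pass the test. With the block the 95% CI of ABCG1 was 0.13 to 1.44 (edgeR adjusted p = 0.0697), and after RUVs its value was 0.13.

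**Figure D3:**
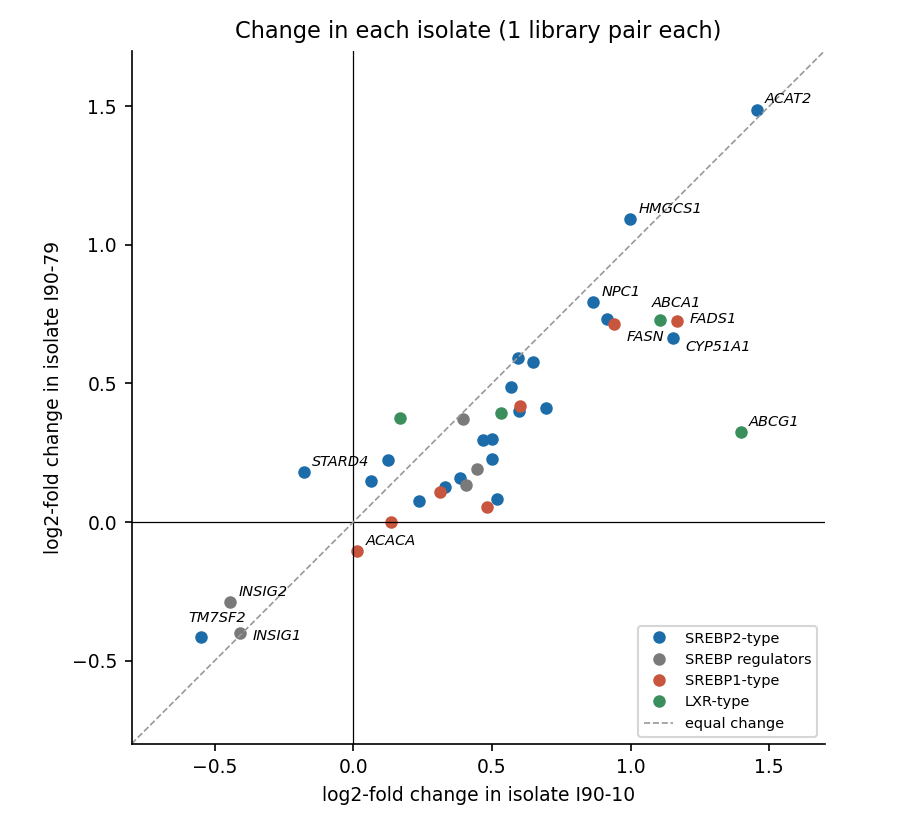
The log2-fold change of each member in isolate I90-79 against that in isolate I90-10, with 1 pair of libraries per isolate, coloured by class, and a dashed line for equal change. In both isolates 32 members are positive and 3 negative, and STARD4 and ACACA differ in sign. Over all 15398 genes tested, 5987 are positive and 6071 negative in both isolates. Of the 37 members 28 have the larger value in I90-10, and the share of all genes that do is not given here.

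Compared side by side, the classes had medians of 0.41 (SREBP2-type, 21 members, 19 positive), 0.31 (SREBP1-type, 7 members, 6 positive) and 0.54 (LXR-type, 4 members, 4 positive). Within isolate I90-10 these medians were 0.52, 0.48 and 0.82, and within I90-79 they were 0.30, 0.11 and 0.38, so each class had its larger median in I90-10. The medians also moved with single libraries. Leaving out knockdown replicate 1 gave an SREBP2-type median of 0.16, and leaving out knockdown replicate 2 gave 0.63. The SREBP1-type median was 0.055 without knockdown replicate 1, 0.17 without control replicate 2, 0.47 without control replicate 1 and 0.64 without knockdown replicate 2. For the LXR type it was 0.17 without control replicate 1, 1.10 without control replicate 2, 0.90 without knockdown replicate 1 and 0.30 without knockdown replicate 2. With all 4 libraries, RUVs and DESeq2 gave 0.56 for the SREBP2 type, 0.54 for the SREBP1 type and 0.26 for the LXR type, which was then the lowest. The order of the classes therefore depended on the fit and on which library was left out, and the difference between classes was not tested. The knockdown library of I90-10 was the highest of the 4 for 28 of 37 members, among them 18 of 21 SREBP2-type and 7 of 7 SREBP1-type members but 0 of 4 LXR-type members. The share of all genes with that library highest is not given here. These counts are therefore not read as a result about the members or the classes.

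**Figure D4:**
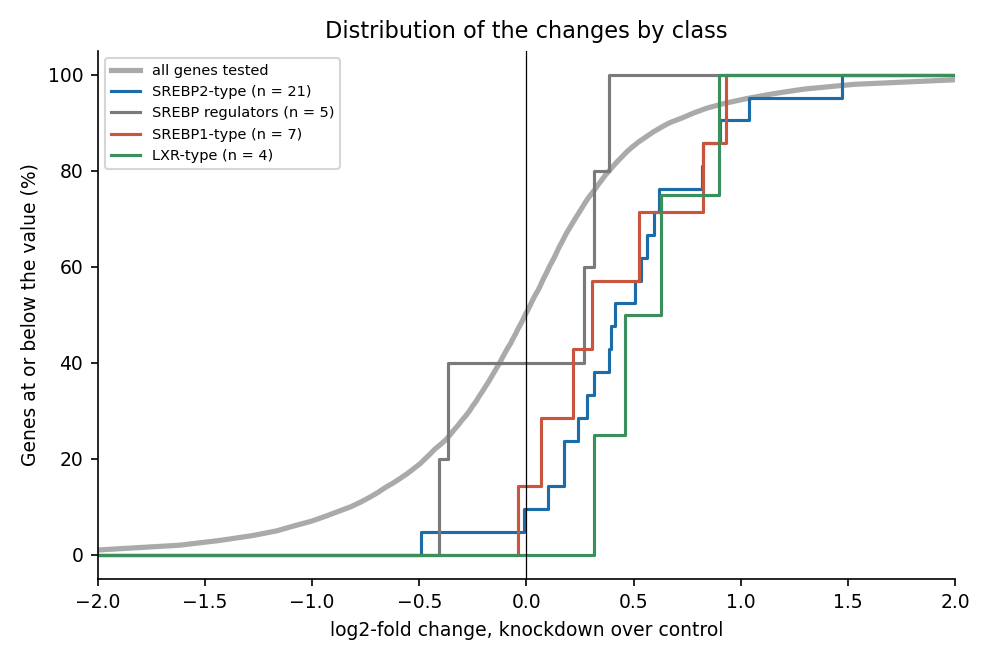
Share of genes (%) at or below each log2-fold change (knockdown over control) for the 4 classes and for all 15398 genes tested. The SREBP2-, SREBP1- and LXR-type curves lie to the right of the curve of all genes over most of its range, and the regulators fall on both sides of 0.

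A further 49 genes of sterol and fatty acid metabolism, listed as neighbours of these pathways, did not lean one way. Of 48 that were tested (CYP7B1 was listed at 0 in every library), 23 were higher and 25 lower, with a median of -0.02. With the isolate block 6 of the 48 rose and 6 fell, against 6.68% and 7.84% of all genes. Without it 1 was called, LBR, which fell, against 0.0649% of all genes called up and 0.136% down. SOAT1, which esterifies cholesterol for storage, was 45.5 and 43.5 CPM in control and 105 and 92.0 CPM in knockdown libraries (log2-fold change 1.15, SE 0.12, edgeR adjusted p = 0.0139, and 0.000161 with the block). ME1, a malic enzyme that supplies NADPH, was 92.2 and 82.3 CPM in control and 182 and 189 CPM in knockdown libraries (1.09, SE 0.12, edgeR adjusted p = 0.0142, and 0.000207 with the block). Both were clear of overlap.

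LBR (chr1:225589204-225616627), the lamin B receptor, which has the same sterol C14 reductase activity as TM7SF2, was 74.7 and 81.1 CPM in control and 16.9 and 15.1 CPM in knockdown libraries. It fell 4.88-fold (log2-fold change -2.29, SE 0.13, edgeR adjusted p = 0.00751). MBTPS2, the site-2 protease that releases SREBPs in the Golgi, was 42.5 and 47.4 CPM in control and 14.1 and 16.3 CPM in knockdown libraries. MBTPS2 thus had a log2-fold change of -1.57 (SE 0.14, edgeR adjusted p = 0.0111, and 6.64e-05 with the block), and neither gene overlapped between the groups. By sub-list, the block called 0 up and 1 down of 9 further genes of the sterol branch. In SREBP processing it called 1 up and 2 down of 8, and in sterol handling 3 up and 1 down of 10. In fatty acid metabolism it called 2 up and 2 down of 16, and 0 of 5 linked to LXR. Over all genes the block called 6.68% up and 7.84% down.

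**Figure D5:**
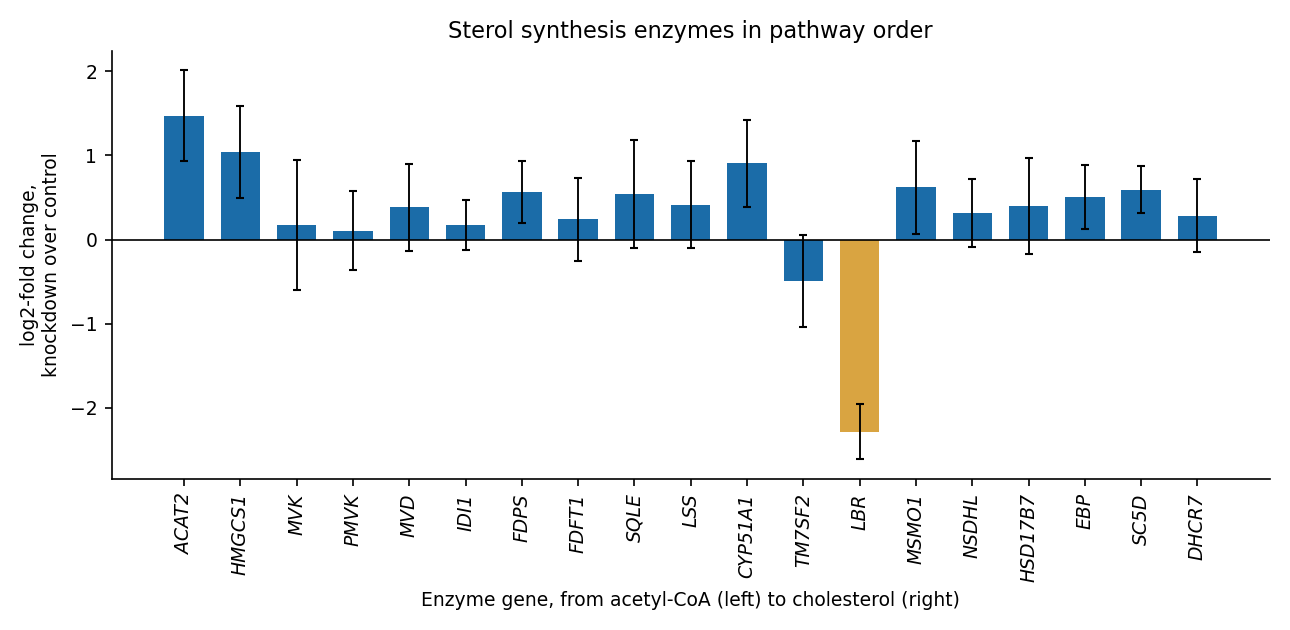
The log2-fold change (knockdown over control) of the 18 sterol synthesis enzymes among the members in pathway order (blue bars) and of LBR beside TM7SF2 (ochre bar), with 95% confidence intervals from edgeR. Of the 18 blue bars 17 point up, ACAT2 and HMGCS1 are the tallest at 1.47 and 1.04, and both bars at the C14 reductase step point down (TM7SF2 at -0.49, LBR at -2.29).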

How the data were processed

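The data are RNA-seq read counts per gene. Per the labels and methods, TruSeq libraries of poly(A)-selected RNA were sequenced by the authors on a HiSeq4000 in paired-end mode. STAR with default settings placed the reads on hg19, and featureCounts gave the unique reads of each gene. The deposited values are raw counts for 1 library per file, without normalization. Tool versions, the setting for strand and whether read pairs were counted once are not given in the sources used here. The authors tested with RUVs and DESeq2.

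From these counts, CPM and RPKM (CPM per kilobase of exon) were computed with TMM library sizes, and the groups were compared with edgeR 4.0.16 (limma 3.58.1, R 4.3.3): filterByExpr, TMM, quasi-likelihood test, Benjamini-Hochberg adjustment over all 15398 genes tested. Calls needed an adjusted p below 0.01 and a log2-fold change beyond 0.6. The fits were first run on simulated data, and the outcome is not given here. For the fit without the isolate, the simulated isolates did not differ, unlike those of the real libraries. Each isolate is in both groups, so replicate numbers pair the libraries, and the differences between isolates had a correlation of 0.464 between the groups. Values with the isolate block are therefore given beside results whose call or interval it changes. DESeq2 1.42.0, RUVs (1 factor, written out from its description), other scalings and filters, and leaving out each library were alternatives.

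The members and lists were chosen with earlier results of these data known. All members could be named, with values in every library for those at an unadjusted p below 0.05 or called with the block and for SREBF1, SREBF2 and NR1H2. Of the 49 other pathway genes, the 2 with the smallest p in each direction are named. Symbols were matched to identifiers by name, ACACA by the overlap of its exons on hg19. PECAM1 was not analysed here.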

Additional observations from a re-analysis of the deposited data

Results flagged for a closer look

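STARD4 and ACACA had opposite signs in the isolates. The log2-fold change of STARD4 was -0.18 in I90-10 and 0.18 in I90-79, and that of ACACA was 0.014 in I90-10 and -0.11 in I90-79. Each value rests on 1 pair of libraries, the values lie near 0, and the difference between isolates was not tested.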

How the results depend on the processing

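The number of calls depended on the tool, the filter on low counts and the treatment of the isolates. With the replicate block, edgeR called 1028 genes up and 1207 down and 9 of the 37 members. DESeq2 called 728 up, 818 down and 7 members, RUVs followed by DESeq2 763 up, 830 down and 12 members, and edgeR without a filter on low counts 1118 up, 1275 down and 10 members. At an adjusted p below 0.05 with any fold change, 606 genes were up, 693 down and 7 members were called, and with at least 10 counts in every library 6 genes were up. Without 1 library, which leaves a single sample in a group that is assumed to vary like the other group, between 0 and 305 genes were up, 0 and 337 down, and 0 to 2 members were called.

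The number of members with an unadjusted p below 0.05 was 28 with the block and 25 after RUVs. The share of all genes at that limit is not given here for these 2 fits. The counts are therefore not read as a result about the members. The promoter motif TCACNCCAC with up to 1 mismatch, chosen after seeing the data, was found in 16 member promoters (38.1%) against 24.5% of all promoters. Class medians without 1 library lay between 0.16 and 0.63 (SREBP2-type), 0.055 and 0.64 (SREBP1-type) and 0.17 and 1.10 (LXR-type).

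Of 37 members, 29 kept their sign in every alternative. STARD4 was at 0.0008 with the block and 0.11 after RUVs, ACACA at 0.14 and MYLIP at -0.38 after RUVs. Leaving out 1 library gave ranges of -0.18 to 0.18 for STARD4, -0.27 to 0.16 for ACACA, -0.023 to 1.90 for ABCG1, -0.55 to 1.05 for MYLIP, -0.23 to 0.50 for MVK, -0.045 to 0.26 for PMVK, -0.013 to 0.46 for FDFT1 and -0.11 to 0.64 for FADS2. The cause was not tested. The 2 libraries in each group limit the precision.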
